A study of Rattus norvegicus with 4 samples.

Results

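The hypoxia-inducible factors (HIFs) and the enzymes that control them were examined in m6A-seq data of neonatal rat cardiac fibroblasts (CFs). Hif1a, Epas1, Hif3a, Arnt, Arnt2, Egln1, Egln2, Egln3, Hif1an and Vhl were chosen by name, and the peaks of each were taken from the lists by its NCBI gene ID. These are 10 genes, of which 7 carried a peak, among 8729 genes with a peak in either list. The CFs came from hearts of Sprague-Dawley rats at most 3 days old. For 48 h they carried either an empty plasmid (Vector, genotype label WT) or a plasmid with rat FTO cDNA (FTO, genotype label FTO overexpression). Each of the 2 groups consists of 1 m6A-IP library and 1 input library, for which the labels name no hypoxia. The transfection was transient in primary cells, and neither the share of cells that took up the plasmid nor the number of cultures or animals behind a library is given in the sources used here.

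m6A-seq pulls down RNA fragments with an antibody against N6-methyladenosine, and a peak is a stretch where these fragments exceed the input RNA. The deposited measurement is 1 list of peaks per group with the length of each peak in bp, an Ensembl transcript and a gene ID. Heights, enrichment and read depth are unknown here, no peak sequence is shown because the lists hold no positions, and with 1 library pair per group no difference has a replicate check. In these bulk libraries fewer cells with a transcript, less of the transcript per cell and less m6A on it cannot be told apart by the number of peaks.

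A HIF is a dimer of an oxygen-regulated alpha subunit and a stable beta subunit, and it switches on genes of glycolysis, angiogenesis and matrix remodelling when oxygen is low. With oxygen present, the prolyl hydroxylases encoded by Egln1, Egln2 and Egln3 mark the alpha subunit for the VHL ubiquitin ligase, and the asparaginyl hydroxylase encoded by Hif1an blocks its contact with coactivators. These hydroxylases and the demethylase FTO all belong to the iron and alpha-ketoglutarate dependent dioxygenases. Cardiac fibroblasts meet low oxygen in the infarcted heart, where HIF activity bears on scar formation.

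These genes carried 14 Vector peaks and 10 FTO peaks. The numbers were 12 and 10 with peaks of at least 100 bp, and 8 and 7 with peaks of at least 200 bp. Hif1a, Epas1, Arnt and Hif1an (4 genes) had fewer FTO peaks than Vector peaks, Egln2 and Egln3 (2 genes) had equal numbers, and Hif3a (1 gene) had more. Arnt2, Egln1 and Vhl had no peak in either list. Over all genes with a peak, 41.4% had fewer FTO peaks, 37.4% as many and 21.2% more, against 57.1% of the 7 members with fewer and 14.3% with more. The median difference in peak number, FTO minus Vector, was -1 over these 7 members and 0 over all genes. Genes with many peaks more often had fewer FTO peaks, and among genes with at least 3 peaks in either list the share was 55.1%. With peaks of at least 100 bp, Arnt moved to equal numbers. Of the 7 members, 3 then had fewer FTO peaks, 3 as many and 1 more. Of all genes with such a peak, 38.5% had fewer and 21% more. Whether the members differ from other genes was not tested. The FTO list was also shorter as a whole, with 17796 peaks against 21249, and its part in the lower numbers was not tested. The FTO numbers were also scaled by 1.19, which brings the FTO list to the size of the Vector list. The same 4 members then had fewer FTO peaks, and Egln2 and Egln3 joined Hif3a on the side with more. This outcome was fixed in advance. At the members' low peak numbers a factor of 1.19 cannot undo a difference, and it puts every equal number on the side with more. That scaling leaves no gene at equality and gave 39.9% of all genes with fewer and 60.1% with more.

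**Figure D1:**
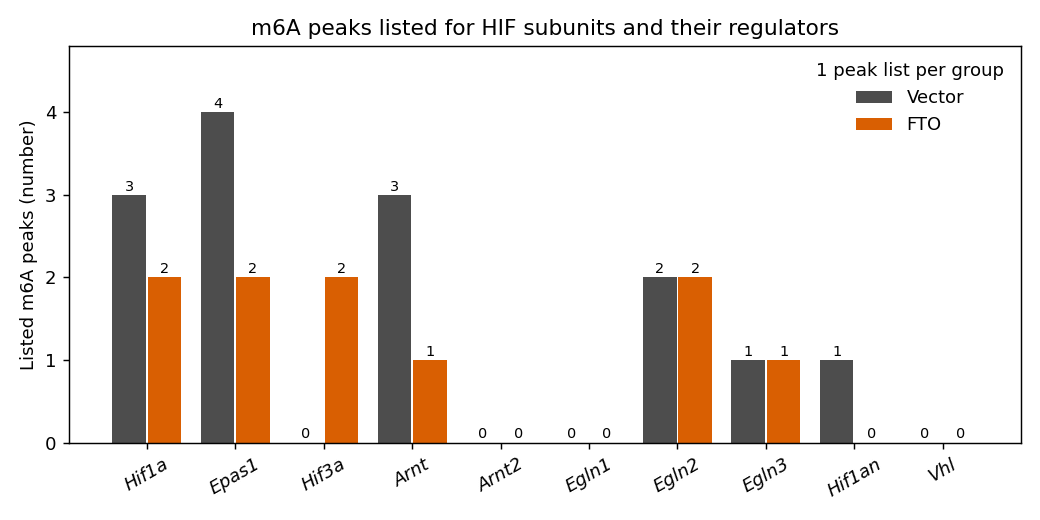
Number of listed m6A peaks (vertical axis) for each of the 10 members in the Vector list (grey bars) and the FTO list (orange bars), 1 list per group and hence no error bars. Hif1a, Epas1, Arnt and Hif1an have lower FTO bars, Egln2 and Egln3 have equal bars, and Hif3a has 2 peaks in the FTO list alone.

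Among the alpha subunits, Hif1a (gene ID 29560) encodes HIF1α, the broadly expressed subunit that is stabilised by hypoxia. Its 3 Vector peaks measured 336, 434 and 109 bp and its 2 FTO peaks 336 and 434 bp, all on transcript ENSRNOT00000049725. Both longer peaks were thus listed with the same length in the 2 groups, and the peak of 109 bp was listed in the Vector group alone. That peak belongs to the short ones, since 16.1% of all Vector peaks were shorter, whereas the peak of 434 bp was longer than 70.3% of them. The listed length of Hif1a summed to 879 bp with Vector and 770 bp with FTO. Such a difference was common. Of the 964 genes with 3 Vector peaks, 56.7% had fewer FTO peaks, and their median was 2 FTO peaks.

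Epas1 (gene ID 29452) encodes HIF2α, the alpha subunit known from endothelium and from control of erythropoietin. It had the most Vector peaks of the members, 4 peaks of 211, 217, 191 and 111 bp. The FTO list held peaks of 211 and 191 bp, and none of 217 or 111 bp. Epas1 was the member whose peaks were assigned to several transcripts. The peaks of 211 and 217 bp were placed on ENSRNOT00000090420, the peak of 191 bp on ENSRNOT00000080507 and the peak of 111 bp on ENSRNOT00000034991, so that the last of these transcripts was not listed for Epas1 in the FTO group. The summed length was 730 bp with Vector and 402 bp with FTO, a difference of -328 bp, the lowest among the members. Of the 605 genes with 4 Vector peaks, 59.8% had fewer FTO peaks and 33.4% had 2 or fewer. Epas1 thus lay below their median of 3 FTO peaks.

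Hif3a (gene ID 64345) encodes an alpha subunit with several splice forms, some of which act as inhibitors of the other HIFs. It had no Vector peak, and 2 FTO peaks of 272 and 102 bp were on transcript ENSRNOT00000023490. Peaks in the FTO list alone were found for 9.57% of all genes, and 15.3% of those genes had at least 2 FTO peaks. The peak of 272 bp was of middle length, with 55.7% of the FTO peaks being shorter, and the peak of 102 bp was a short one, with 11.2% being shorter.

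The beta subunit gene Arnt (gene ID 25242) encodes the common dimer partner of the HIF alpha subunits and of the aryl hydrocarbon receptor. It had 3 Vector peaks of 32, 45 and 148 bp and 1 FTO peak of 148 bp, all on ENSRNOT00000044738. The peaks of 32 and 45 bp that were listed with Vector alone were among the shortest in the data, with 0.372% and 0.993% of the Vector peaks being shorter. The remaining peak of 148 bp had the same length in both lists. When peaks under 100 bp were left out, Arnt had 1 peak in each group, so its difference rests on those short calls. Of the genes with 3 Vector peaks, 26.8% had 1 FTO peak or none. Arnt2 (gene ID 25243), a related beta subunit best known from the nervous system, had no listed peak.

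The prolyl hydroxylases with a peak had as many in each group. Egln2 (gene ID 308457), which encodes PHD1, carried a pair of peaks on ENSRNOT00000028434, measuring 525 and 1097 bp with Vector and again 525 and 1097 bp with FTO. Its listed peaks were therefore identical in number and length, with a sum of 1622 bp in each group. Of the 700 genes with 2 peaks in each list, 55.9% also had equal lengths, and of all 1738 genes with 2 Vector peaks, 46.5% had fewer FTO peaks. Egln3 (gene ID 54702) encodes PHD3, which is itself induced by HIF. It had 1 peak of 1561 bp with Vector and 1 peak of 1595 bp with FTO, on ENSRNOT00000007219. These were the longest peaks of the members, longer than 92.5% of the Vector peaks and 91.5% of the FTO peaks, and they differed by 34 bp. Among the 1873 genes with 1 peak in each list, 61.7% had peaks of equal length. Egln1 (gene ID 308913), which encodes PHD2, the main oxygen sensor of the family, had no listed peak in either group.

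Hif1an (gene ID 309434), which encodes the asparaginyl hydroxylase FIH, had 1 Vector peak of 251 bp on ENSRNOT00000019070 and no FTO peak. The peak was of middle length, with 58.3% of the Vector peaks being shorter. Peaks in the Vector list alone were found for 16.4% of all genes, and 31.5% of the 3341 genes with 1 Vector peak had none in the FTO list. Vhl (gene ID 24874), which encodes the part of the ubiquitin ligase that binds the hydroxylated alpha subunit, had no listed peak in either group.

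**Figure D2:**
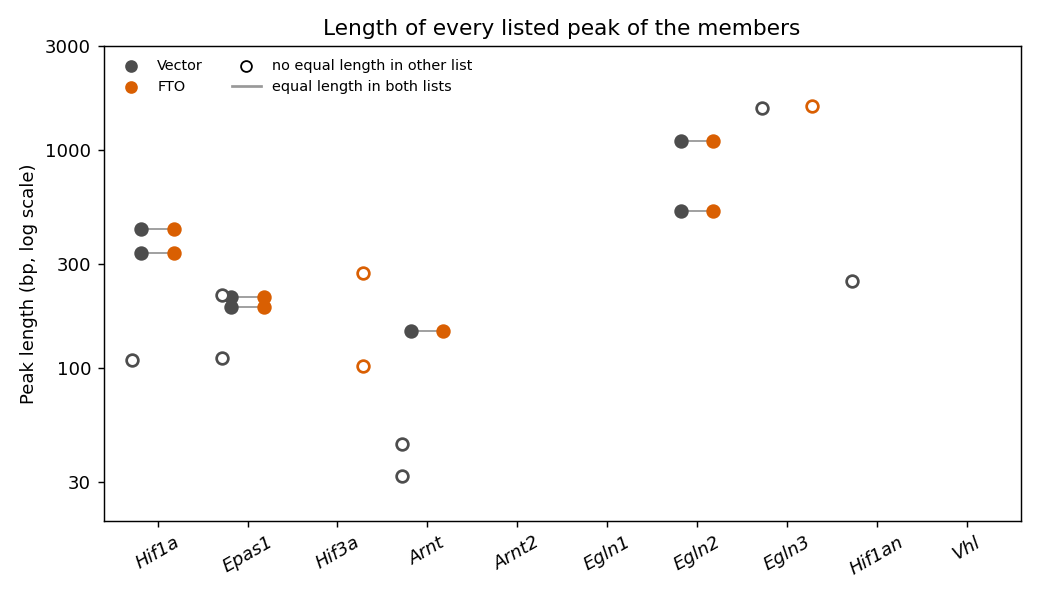
Length of every listed peak of the members in bp on a log axis, Vector in grey and FTO in orange, with a line joining peaks of equal length and open points for peaks without an equal length in the other list. The 7 joined pairs lie between 148 and 1097 bp, and the open Vector points of Hif1a, Epas1 and Arnt include the 4 shortest Vector peaks, 109, 111, 45 and 32 bp, while the shortest FTO peak is the open point of Hif3a at 102 bp.

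Peak by peak, 7 of the 14 Vector peaks were matched in the same gene by an FTO peak of equal length, namely 2 each for Hif1a, Epas1 and Egln2 and 1 for Arnt. The other 7 Vector peaks were 50% (95% Wilson interval 26.8% to 73.2%, counting error only), against 42.7% of all Vector peaks. Of the 10 FTO peaks, 3 (30%, 10.8% to 60.3%) were without such a partner, against 31.6% of all FTO peaks. Both intervals are wide, and they count peaks of 1 gene as independent, which they are not. Whether the members' peaks differ from other peaks was not tested. Equal length does not show equal position, which the lists do not give. The paralogs Hk1 and Hk2, for example, had 4 lengths in common within the Vector list and 4 within the FTO list. The Vector peaks with a partner had a median length of 336 bp and those without one 111 bp, while over the whole Vector list these medians were 211 and 191 bp. The FTO peaks of the members had medians of 336 bp with a partner and 272 bp without, whereas over the whole FTO list the peaks without a partner were the longer ones, with 294 bp against 211 bp. For Hif1a, Epas1 and Arnt every FTO peak had a Vector peak of equal length, which was also true of 59.5% of all 2181 genes with fewer but at least 1 FTO peak.

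The lists do not hold every peak that was numbered. Numbers followed the order of the genes along the chromosomes, with a median Spearman rho across 21 chromosomes of 0.99 and a lowest of 0.9 in each list, given as a description. The listed peaks were 35.7% of the highest number for Vector and 34.2% for FTO. Within Epas1 the Vector peaks spanned 6 consecutive numbers, of which 4 were listed, whereas the FTO peaks were 2 consecutive numbers. The next gene in the order, Rhoq, followed with no number between in either list, so no unlisted FTO number stood between the last Epas1 peak and Rhoq. Within Arnt the Vector peaks spanned 6 numbers with 3 listed. In the FTO list 6 unlisted numbers preceded the single Arnt peak and 15 followed it. Hif1a used consecutive numbers in both lists, and 4 unlisted FTO numbers followed its last peak. Where Hif1an would stand in the FTO list, between Scd and Slf2, there were 2 unlisted numbers and no listed peak. Where Hif3a would stand in the Vector list, between Ccdc8 and Micb, there were 10 numbers, of which 1 was listed, for another gene. Why numbers are unlisted is not stated in the sources used here. A member without a listed peak is therefore not shown to lack m6A.

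Beyond the 10 members, the turnover machinery around VHL was examined with 11 genes, of which 6 had a peak. Of these, 2 had fewer FTO peaks, 3 had equal numbers and 1 had more, and the sums were 8 Vector peaks and 5 FTO peaks. The shares with fewer and more were 33.3% and 16.7%, against 41.4% and 21.2% of all genes. Cul2, the scaffold of the VHL ligase, had 3 Vector peaks and 1 FTO peak, and none of its lengths was shared between the lists. Siah2, a ubiquitin ligase that targets the prolyl hydroxylases, had 2 Vector peaks, the longest of 1293 bp, and no FTO peak, while Siah1 had 1 peak in each list, of 1906 bp with Vector and 178 bp with FTO. Usp33 had 1 peak of 418 bp and Hsp90aa1, a chaperone of HIF1α, 1 peak of 626 bp, the same in both groups. Usp20, a deubiquitinase that opposes VHL, had 1 peak in the FTO list alone. The partner subunits Elob, Eloc and Rbx1 had no listed peak.

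Of 10 transcriptional partners of HIF, 7 had a peak, with 3 (42.9%, against 41.4% of all genes) having fewer FTO peaks, 1 as many and 3 (42.9%, against 21.2%) more. Crebbp, the coactivator CBP, had 11 Vector peaks and 10 FTO peaks, of which 7 had equal lengths. The steroid receptor coactivators had 9 and 7 peaks for Ncoa1, 8 and 9 for Ncoa2, and 4 and 2 for Ncoa3. Cited4, an inhibitor of the contact between HIF and its coactivators, had 1 FTO peak of 892 bp and no Vector peak. Over this group the sums were 35 Vector peaks and 33 FTO peaks.

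The genes that HIF is known to activate were examined with 46 symbols, and 31 had a peak. Their sums were 69 Vector peaks and 73 FTO peaks, although the FTO list as a whole was shorter. Fewer FTO peaks were listed for 11 genes (35.5%, against 41.4% of all genes), as many for 8, and more for 12 (38.7%, against 21.2%). The median difference was 0, as over all genes. Peaks stood in the FTO list alone for 5 target genes (16.1%, against 9.57%) and in the Vector list alone for 2 (6.45%, against 16.4%). With peaks of at least 100 bp, 30 target genes were left, of which 11 (36.7%) had fewer FTO peaks and 10 (33.3%) had more, against 38.5% and 21% of all genes. Genes with fewer then outnumbered those with more. With peaks of at least 200 bp, 23 target genes were left, of which 5 (21.7%) had fewer FTO peaks and 8 (34.8%) had more, against 27.5% and 18.6% of all genes. With the FTO numbers scaled to the size of the Vector list, 11 (35.5%) had fewer and 20 (64.5%) more, near the 39.9% and 60.1% of all genes under that scaling. These shares are a description of 1 pair of lists. The target genes were listed by hand from general knowledge, with earlier results of these data known.

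Among the glycolytic targets, the hexokinases had 7 Vector and 8 FTO peaks for Hk1, and 6 and 5 for Hk2. Pfkl, the liver type of phosphofructokinase, had 8 Vector peaks and 5 FTO peaks, each of the latter with a Vector peak of equal length. Pgk1, phosphoglycerate kinase, had 1 Vector peak of 109 bp and no FTO peak. Pfkfb4, which makes an activator of phosphofructokinase, had 2 FTO peaks and no Vector peak. Its relative Pfkfb3 had 1 Vector peak of 208 bp and 4 FTO peaks, the longest of 2567 bp, and was singled out after its values were seen. Aldoa, Eno1, Ldha and Pdk1 had no listed peak.

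Among the targets in vessels and signalling, Flt1, a receptor for VEGF, had 7 Vector peaks and 4 FTO peaks, of which 2 had equal lengths. Vegfa itself, named after its values were seen, had 3 Vector peaks and 1 FTO peak, the longest being 1909 bp in both groups. Edn1, the precursor of the vasoconstrictor endothelin, had 2 FTO peaks, and Angptl4, an inhibitor of lipoprotein lipase, had 3, the longest of 169 and 676 bp, and neither had a Vector peak. Ndrg1 had 2 FTO peaks and Hilpda, a lipid droplet protein, had 1, again with no Vector peak. Kdm4c, a histone demethylase, had 1 Vector peak of 120 bp and no FTO peak.

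**Figure D3:**
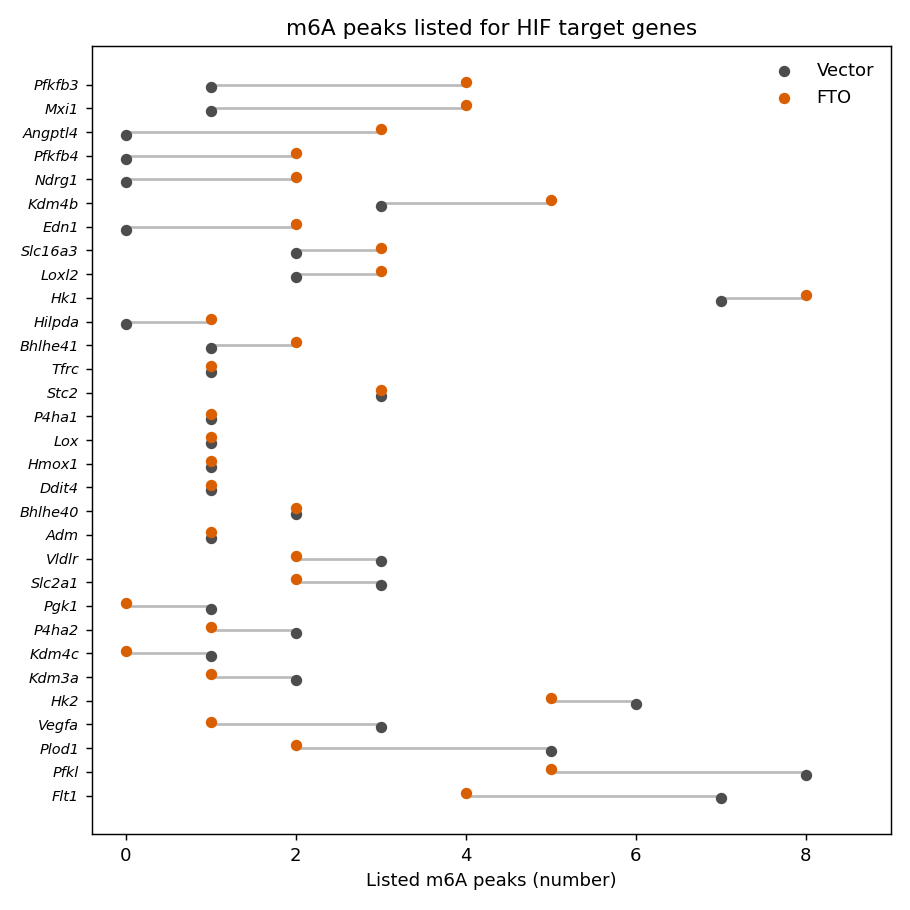
Number of listed m6A peaks (horizontal axis) of the 31 HIF target genes with a peak, Vector in grey and FTO in orange, ordered by the difference and with points shifted slightly apart. The 12 genes at the top have more FTO peaks, the 8 in the middle as many and the 11 at the bottom fewer.

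**Figure D4:**
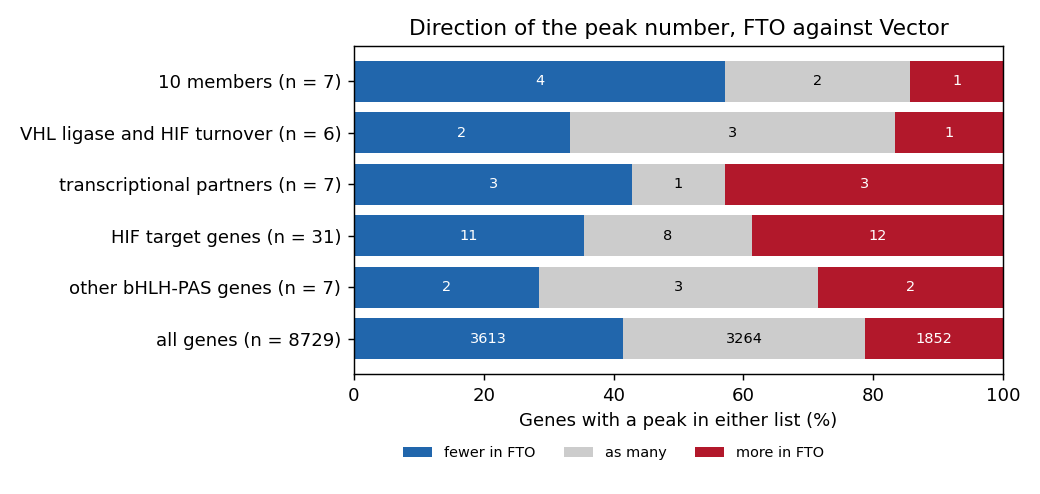
Share of genes (%) with fewer, as many or more peaks in the FTO list among genes with a peak in either list, with the number of genes in each part of a bar. The members have 4 of 7 with fewer peaks, beside 3613 of 8729 for all genes. The HIF target genes have 12 of 31 with more, beside 1852 of 8729 for all genes.

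Several values bear on the lists as a whole. Fto, the transfected gene, had 3 Vector peaks and 9 FTO peaks, and the lists do not tell plasmid RNA from RNA of the cells' own gene. Of 8 fibroblast markers 5 had a peak, with Pdgfra at 7 and 6 peaks, Pdgfrb at 1 peak of 1870 bp and Tcf21 at 1 peak of 675 bp in both lists, Ddr2 in the FTO list alone and Postn in the Vector list alone, while Vim, Col1a1 and Col1a2 had no listed peak. All 5 cardiomyocyte markers had peaks, 22 with Vector and 24 with FTO, among them Myh6 with 7 and 7, Myh7 with 8 and 5, Tnnt2 with 4 and 7, Ryr2 with 2 and 5, and Actn2 in the Vector list alone. Myh6 and Myh7 are paralogs with similar sequences, and whether the split of reads between them is right was not tested. Of 3 macrophage markers 2 had peaks, 2 in each list, with Csf1r at 2 and 1 and Cd68 in the FTO list alone, and the 3 endothelial markers had none. A number of peaks is not an expression level, and the part of cardiomyocyte RNA in the members' peaks was not tested.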

How the data were processed

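m6A-seq of Vector and FTO CFs was deposited as 1 peak list per group, made from 1 m6A-IP and 1 input library. Per the file headers, the measurement is the peak length in bp, another kind of value than a read count, and it was not normalized by the authors. The submitters' processing notes name cutadapt 1.9.3, HISAT2 2.0.4 and the build rn6. Peak names start with MACS, and the caller's version, threshold and annotation are not given in the sources used here.

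Peaks were assigned by gene ID, or by transcript where none was given (248 Vector and 213 FTO peaks). Symbols came from the RefSeq table of GRCr8, which named 7489 of 7723 and 6920 of 7145 gene IDs. Its positions served only to check the order of the peak numbers. Peaks were paired 1 to 1 by gene and equal length. No depth was available and no test was made. Counting and pairing were tested on simulated data. Wilson intervals cover counting error only. The members and lists were chosen with earlier results of these data known. Besides the members and Fto, each list's 4 genes with the most peaks, ties included, and those in 1 list only are named, and other genes were named after their values were seen. Alternatives were length minimums of 100 and 200 bp, scaling, other pairings and other length summaries. Python 3.11.15, numpy 2.4.6, pandas 2.3.3, scipy 1.17.1 and matplotlib 3.10.9 were used.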

Additional observations from a re-analysis of the deposited data

How the results depend on the processing

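Of 107 values under the alternatives, 84 kept their direction or stayed within 1.5 times the reported count. Among the summary values 39 stayed and 18 moved, and among the members' differences in peak number 45 stayed and 5 moved. Part of this was fixed in advance. Arnt2, Egln1 and Vhl had no peak in either list, so their differences could not move, and scaling leaves the Vector numbers as they are. At the members' low peak numbers, scaling could also not reverse the direction of any member. With peaks of at least 200 bp, the members had 8 Vector peaks and 7 FTO peaks, 2 of them had fewer FTO peaks (Epas1 and Hif1an), Hif1a had equal numbers, Arnt had none, 1 transcriptional partner had fewer and 1 more, and 5 HIF target genes had fewer. Of all genes with such a peak, 27.5% had fewer FTO peaks and 18.6% had more. With the FTO numbers scaled to the size of the Vector list, 0 members had as many and 3 had more, and more FTO peaks were found for 4 genes of VHL turnover, 5 transcriptional partners, 20 target genes and 5 other bHLH-PAS genes (the scaling of these lists was chosen after the data were seen), because scaling moves every equal number above. Under that scaling 60.1% of all genes had more, beside 64.5% of the target genes. By summed length, 4 members were shorter in the FTO list, 2 longer and 1 equal. By the longest peak 2 were shorter and 3 equal, by the median peak 1 was shorter, 4 longer and 2 equal, and by peaks of at least 200 bp 2 were shorter and 2 equal. Hif1an without an FTO peak and Hif3a without a Vector peak entered there with a length of 0 bp. The shares over all genes are not given for these lengths, so whether such counts are usual was not tested. Lengths within 10% added the Egln3 pair, and pairing by transcript changed no member's pair. Counting equal lengths once and adding peaks by transcript only repeated the reported values. No member had 2 peaks of the same length in 1 list, and no peak without a gene ID was added to a member. The values that stayed under these alternatives therefore say nothing about robustness. No paired analysis was possible because a single library of each kind stands for a group, and so no replicate could be left out. The unknown depth limits every number of peaks.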

Other observations

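The other genes of the bHLH-PAS family, to which the HIF subunits belong, were examined with 14 symbols, and 7 had a peak, with 14 peaks in each list. Fewer FTO peaks were listed for 2 (28.6%, against 41.4% of all genes), as many for 3 and more for 2 (28.6%, against 21.2%). Ahr, the receptor that shares Arnt as a partner, had 4 peaks in each group, of which 3 had equal lengths, while its repressor Ahrr had 1 FTO peak of 2691 bp and no Vector peak. Among the clock genes, Clock and Bmal1 had 2 peaks in each list, but 1 and 0 of them had equal lengths, and the longest Clock peak was 1314 bp with Vector and 319 bp with FTO. Per2 had 4 and 3 peaks, and Per3 had 1 peak in the FTO list alone.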
